A study of Xenopus laevis with 12 samples.

Results

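The comparison described here sets explants treated with 200 nM retinoic acid (RA) against explants given vehicle, 0.1% DMSO; the tissue is foregut endoderm of the African clawed frog, Xenopus laevis. It takes 6 of the 12 libraries of the series, 3 per group, which were chosen by their treatment label and not by any measured value. The foregut endoderm had been cut out of wild-type embryos (NXR_0031 stock) at Nieuwkoop-Faber stage NF15 and cultured for 16 hours at 15 °C, to stage NF25. Each library held RNA of 8 pooled explants, and nothing in the labels ties the pools to separate clutches, so a p-value here measures spread between pools only. The labels also do not say whether the RA medium held DMSO. The remaining libraries, 3 at 25 nM and 3 at 500 nM RA, entered the same model and are used below only to place the 200 nM values.

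Retinoic acid is made from vitamin A and acts through retinoic acid receptors, which pair with retinoid X receptors on DNA and switch neighbouring genes when the ligand binds. In vertebrate embryos it sets positions along the head-to-tail axis, and in the foregut endoderm it is needed for organs such as lung and pancreas to form. Its level in tissue is held down by Cyp26 enzymes, which break it down and are themselves often induced by it. The deposited tables name genes by annotation IDs only. Of 44478 gene IDs, 0 could be matched to a symbol in the RefSeq table of the assembly Xenopus_laevis_v10.1, so known RA targets and the markers of foregut endoderm could not be looked up, and no ID below is given a name or a role.

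Library totals in this comparison were 17782601 to 29901907 counts, and 29604 to 31017 IDs had at least 1 count. Libraries were scaled with TMM factors, which set the bulk of the IDs equal, and levels are given as CPM, counts scaled to a common library size after that correction. A group of 19 IDs with neighbouring numbers, many with identical counts, took 17.4% of the counts in 200 nM replicate 1 but 4.72% and 5.06% in replicates 2 and 3 and 4.06% to 6.08% in DMSO. Their lowest edgeR adjusted p was 0.152. In bulk RNA, fewer cells of a type and less RNA per cell cannot be told apart.

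Of the 24454 IDs that passed the filter on low counts, 3558 (14.5%) were higher and 3157 (12.9%) lower at 200 nM RA than in DMSO, at an edgeR quasi-likelihood adjusted p below 0.05. Most of these changes were small. The median log2 fold change was 0.49 for the higher IDs and -0.34 for the lower ones, and 38.1% of all called changes were under 1.25-fold. Rises outnumbered falls more as the size grew. At 1.5-fold or more there were 1519 rises and 907 falls, at 4-fold or more 200 and 100, and at 16-fold or more 23 and 8. Changes of at least 2-fold, 1178 in all (4.82% of the IDs tested), comprised 763 rises (3.12% of the IDs tested) and 415 falls (1.7%).

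The direction split of all called changes depended on the scaling and on the model. With the total count alone in place of TMM factors, 2191 IDs were higher and 3829 lower. With the DMSO and 200 nM libraries fitted alone, 3464 were higher and 3504 lower. Limma on log2(TPM + 1), which changes the unit, the scaling and the test together, gave 1887 and 2782. TPM is the length-scaled unit of the authors' second table. Among at least 2-fold changes, 64.8% were rises with TMM factors and 55.6% with the total count alone. The 3 RA values lay above all 3 DMSO values for 20.7% of the IDs tested and below them for 19% of the IDs. Of the called IDs, 94.6% of those higher and 96.1% of those lower showed such separated groups. The calls use the same values, which largely sets these shares.

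In TPM, which allows levels of different genes to be summed, the called IDs held a large part of the RNA. The 3558 higher IDs held 21.1% ± 0.0551 of the TPM in DMSO and 25.6% ± 1.13 at 200 nM (SD, n = 3 each). The 3157 lower IDs held 25.8% ± 0.206 in DMSO and 21.4% ± 0.722 at 200 nM. The at least 2-fold changes carried little of it. The 763 rises went from 0.325% ± 0.00153 to 0.925% ± 0.0333 of the TPM, and the 415 falls from 0.474% ± 0.00721 to 0.135% ± 0.00404 (SD, n = 3 each). The directions follow from the choice of the IDs.

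**Figure D1:**
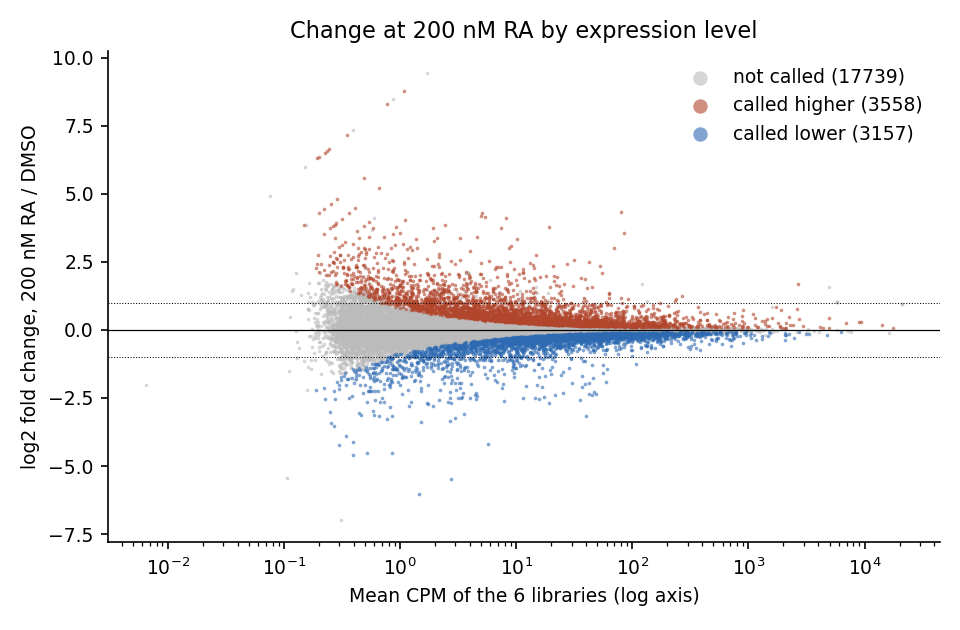
Log2 fold change of each of the 24454 IDs tested, 200 nM RA over DMSO, against its mean CPM over the 6 libraries on a log axis; dotted lines mark 2-fold. Called IDs (3558 higher, 3157 lower) form 2 arms that narrow towards high levels, and nearly all changes beyond 2-fold lie at low to middle levels.

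The response was then followed by expression level, with IDs grouped by their mean CPM over the 6 libraries. Both the share of called IDs and the smallest change that was called moved with level. Under 1 CPM, 10.6% of 4166 IDs were called, and the median called change was 1.75 on the log2 scale. Between 10 and 30 CPM, 32.4% of 5424 IDs were called with a median of 0.34. Between 100 and 300 CPM, 57.5% of 971 IDs were called with a median of 0.21, and at 300 CPM or more 51.6% of 438 IDs with a median of 0.17. The median standard error of all IDs in these 4 groups fell from 0.49 to 0.084, 0.038 and 0.032. The smallest change that was called went from 0.82 under 1 CPM to 0.057 at 300 CPM or more, so at low levels only large changes could pass the test.

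The balance of rises and falls also changed with level. Rises were 67.5% of the calls under 1 CPM, 61.4% between 3 and 10 CPM, 50.8% between 10 and 30 CPM and 40.9% between 100 and 300 CPM. Over all IDs tested, called or not, the median log2 fold change moved the same way. It was 0.11 under 1 CPM, 0.034 between 3 and 10 CPM, -0.0038 between 10 and 30 CPM and -0.039 between 100 and 300 CPM. Whether the split of the calls goes beyond this shift of all IDs was not tested. In counts, 789 of the 8382 IDs tested under 3 CPM were higher and 418 lower. At 30 CPM or more, 1021 of the 4948 IDs tested were higher and 1336 lower. The change with level was also seen with levels in TPM, where rises were 69.4% of the calls under 1 TPM and 33.8% between 100 and 300 TPM. With the total count alone, rises were 56.5% of the calls under 3 CPM and 21.9% at 30 CPM or more.

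Strong changes of abundant RNAs were few. Of the 24454 IDs tested, 8382 had a mean under 3 CPM and 4948 had 30 CPM or more. Changes of at least 2-fold were called for 10.2% of the IDs tested under 1 CPM and 1.19% between 30 and 100 CPM. The shares were 0.412% between 100 and 300 CPM and 0.228% at 300 CPM or more. Of the 1178 IDs with at least a 2-fold change, 66.5% had a mean under 3 CPM, and 47 had 30 CPM or more, of which 26 rose and 21 fell. Only 5 reached 100 CPM, and these were singled out after their values were seen. The most abundant of the 5 had 1259, 1288 and 1282 CPM in DMSO replicates 1 to 3 and 4078, 4088 and 4008 CPM at 200 nM. All RA values lay far above all DMSO values, for a log2 fold change of 1.67 (SE 0.0274, edgeR adjusted p = 2.16e-46). Another 3 rose from means of 149 to 160 CPM to means of 314 to 376 CPM. The remaining ID fell, with 151 ± 4.61 CPM in DMSO and 63.8 ± 3.01 CPM at 200 nM (SD, n = 3 each). Its log2 fold change was -1.24.

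The precision at high levels also bounds the change of the other abundant IDs. At 300 CPM or more, the nominal 95% interval of the log2 fold change lay within 1.25-fold in either direction for 82% of the IDs, and between 30 and 100 CPM for 74.1%. Under 3 CPM no ID had so narrow an interval. Between 1 and 3 CPM, 66.8% of the IDs had an interval within 2-fold, and under 1 CPM 13%.

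**Figure D2:**
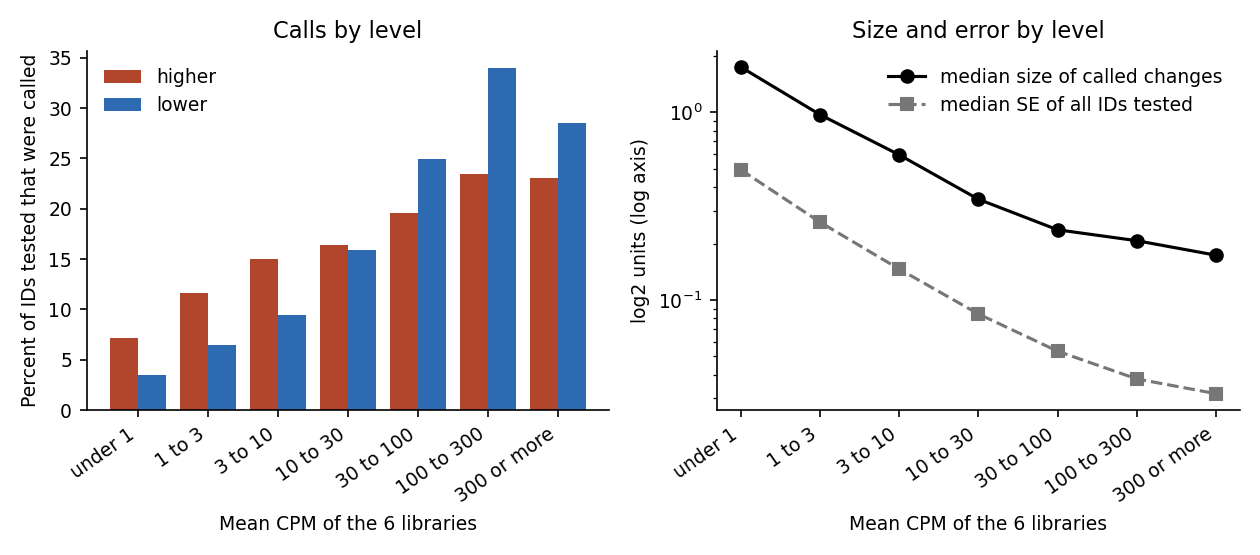
Left, percent of the IDs tested that were called higher or lower at 200 nM RA, by mean CPM over the 6 libraries. Right, on a log axis, the median size of called changes (log2) and the median standard error of all IDs tested in the same groups. Rises exceed falls under 10 CPM (15% against 9.46% at 3 to 10 CPM), falls exceed rises from 30 CPM up (34% against 23.5% at 100 to 300 CPM), and size and error fall together.

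The largest rise among IDs with at least 5 CPM in the higher group was that of XBXL10_1g32591. Its DMSO libraries had 7.90, 6.59 and 8.01 CPM, and its 200 nM libraries 151, 159 and 145 CPM. The groups stood far apart and the 3 RA values were close to each other. The log2 fold change was 4.33 (SE 0.0659, edgeR adjusted p = 1.03e-51), and in TPM the mean went from 4.89 ± 0.555 to 96.1 ± 6.25 (SD, n = 3 each). Compared directly, the level at 200 nM was above that at 25 nM by 0.25 (SE 0.04) and below that at 500 nM by a difference of -0.49 (SE 0.0393) on the log2 scale, with edgeR adjusted p-values of 3.13e-06 and 8.81e-15.

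Among IDs with at least 5 CPM in the higher group, the largest fall was that of XBXL10_1g26263. It had 126, 103 and 125 counts in DMSO replicates 1 to 3 and 7, 0 and 2 counts at 200 nM. The groups did not overlap, and replicate 1 held most of the RA counts. The ratio of summed counts, scaled for depth, was 45.9-fold lower at 200 nM, with a 95% interval from counting error alone of 23.9 to 101. The edgeR log2 fold change was -5.48 (SE 0.642, adjusted p = 3.26e-11), and -6.92 without 200 nM replicate 1.

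The 10 largest rises by the same rule, the first included, had log2 fold changes of 3.36 to 4.33. They started from 0.489 to 13.4 CPM in DMSO and reached 5.96 to 157 CPM at 200 nM. In TPM they reached 4.28 to 96.1, while the median over all IDs tested was 4.17 TPM at 200 nM. Only 2 of the 10 passed 100 CPM at 200 nM, and these had also started highest, at 7.50 and 13.4 CPM. The 10 largest falls by that rule had log2 fold changes of -5.48 to -2.54, started from 5.37 to 72.3 CPM and ended at 0.113 to 10.2 CPM. For 9 of the 10 rises, replicate 3 was the 200 nM library nearest to DMSO. For the 10 falls, that library was replicate 1 for 6, replicate 2 for 3 and replicate 3 for 1.

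IDs switched on were those called higher that had at most 3 counts in each DMSO library and at least 10 in each 200 nM library. In DMSO, 16282 of the 44478 IDs had 3 counts or fewer in each library, and 72 of them passed the filter on low counts, which they could pass only through their RA libraries. Of those, 28 had at least 10 counts in each 200 nM library, and 26 of the 28 were called. The switched-on IDs stayed at low levels. Their means at 200 nM were 0.442 to 2.15 CPM, with a median of 0.694 CPM, or 0.0833 to 5.45 TPM with a median of 0.377 TPM. Summed over the 26 IDs, DMSO replicates 1 to 3 had 21, 37 and 27 counts, and 200 nM replicates 1 to 3 had 580, 545 and 516. For 4 of the 26 all DMSO libraries were at 0.

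The switched-on ID with the highest level was XBXL10_1g22063. It had 0 counts in every DMSO library and 66, 62 and 37 counts in 200 nM replicates 1 to 3. Replicate 3 was the lowest, but all RA values stood well clear of 0. Measured against a floor of 3 counts per DMSO library, the level was at least 15.5-fold higher at 200 nM (edgeR adjusted p = 0.00328). The same ID had 0, 0 and 3 counts at 25 nM and 34, 0 and 7 counts at 500 nM, so it was not on in all RA groups. The edgeR adjusted p was 0.00613 for 200 against 25 nM and 0.0517 for 200 against 500 nM.

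The 26 IDs fell into unlike kinds at the lower dose. At 25 nM, 13 of them had at least 10 counts in every library, 9 had at most 3 in every library, and the others lay between. The 13 summed to 10.3, 10.7 and 11.6 CPM in 200 nM replicates 1 to 3 and to 14.0, 11.8 and 12.4 CPM in 25 nM replicates 1 to 3. The 200 nM values lay just below the 25 nM values, and replicate 3 was the highest at 200 nM. The 9 summed to 9.62, 9.54 and 6.33 CPM in 200 nM replicates 1 to 3, to 0.104, 0.083 and 0.275 CPM at 25 nM and to 3.42, 0.51 and 1.79 CPM at 500 nM. Here replicate 3 was the lowest 200 nM library for 7 of the 9, and the 500 nM libraries were spread widely. These kinds were formed after the values were seen and were not tested.

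IDs switched off met the reverse conditions, and there were 5. Of 15787 IDs with 3 counts or fewer in each 200 nM library, 21 passed the filter, and 5 had at least 10 counts in each DMSO library. All 5 were called, which the choice of at most 3 against at least 10 counts all but fixed, and they passed the filter through their DMSO libraries. The p-values of IDs switched on or off are given as a description. The highest of these in DMSO was XBXL10_1g23946, with 46, 63 and 78 counts in DMSO and 0, 0 and 3 counts at 200 nM. No value of one group came near the other. The scaled ratio of summed counts was 72.8-fold lower at 200 nM (95% interval from counting error 24.5 to 356), with an edgeR adjusted p of 9.18e-12. Without 200 nM replicate 3, the remaining RA libraries were both at 0. The ID had 0 to 4 counts at 25 nM and 0 to 1 at 500 nM. The 5 IDs had DMSO means of 0.618 to 2.86 CPM, and 3 of them had at most 3 counts in every 500 nM library. The numbers switched on and off depend on where the limits are set and on library depth. The limits are in raw counts, and totals were 17782601 to 24513744 in DMSO and 23543242 to 29901907 at 200 nM. With the 6 libraries thinned to the shallowest, 10 IDs were switched on and 12 off, so the excess of IDs switched on was not kept. With at most 0.1 TPM as the low side the numbers were 57 and 14, and without DMSO replicate 3 they were 61 and 5. Without DMSO replicate 2, 200 nM replicate 1 or 200 nM replicate 2, the IDs switched off numbered 10, 9 and 10. When a library is left out, only 2 libraries of its group have to meet the limit, so the rule itself is looser.

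**Figure D3:**
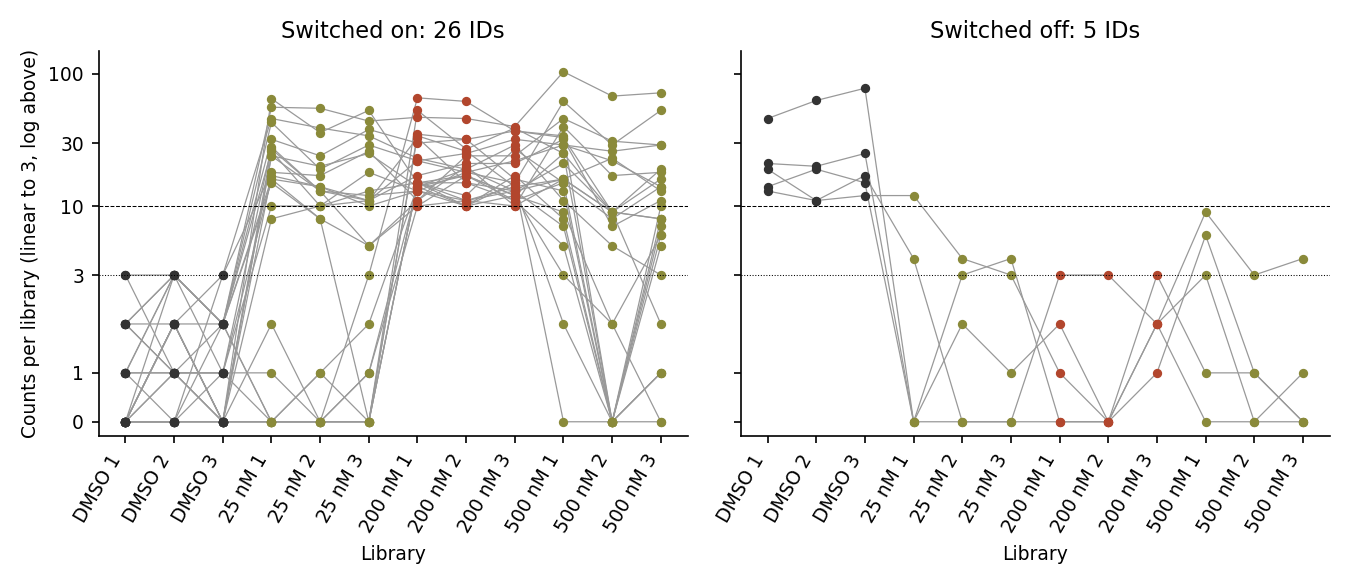
Counts in each of the 12 libraries of the 26 IDs switched on (left) and the 5 switched off (right) at 200 nM RA; each line is 1 ID, and the axis is linear to 3 and logarithmic above. Dotted and dashed lines mark 3 and 10 counts, the limits used for the choice. The 500 nM libraries spread over the whole range, down to 0 in replicate 2.

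How far 200 nM replicate 3 departed from replicates 1 and 2 was measured as the log2 ratio of a library to the mean of the group's other libraries, in the same way for each of the 6 libraries, among IDs with at least 5 CPM in the group. By rank, replicate 3 resembled the others. Its Spearman correlations across genes were 0.991 with replicate 1 and 0.992 with replicate 2, while replicates 1 and 2 correlated at 0.992 and the DMSO pairs at 0.990 to 0.991. Genes are not independent replicates. At least 2-fold departures were 1 higher and 13 lower in replicate 3, of which 11 were among the 19 neighbouring IDs that were high in replicate 1. Replicate 1 itself had 24 IDs at least 2-fold higher. The 19 neighbouring IDs are the largest run of near numbers among these 24, so their departure in replicate 1 was set by the choice. Leaving out the 19, at least 2-fold departures were 1 higher and 2 lower in replicate 3. They were 5 higher and 0 lower in replicate 1, and 0 higher and 2 lower in replicate 2.

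At 1.5-fold, a limit added after the data were seen, replicate 3 had the most lower IDs of the 6 libraries. Of 13863 IDs, 75 were lower and 13 higher in replicate 3, against 5 and 30 in replicate 1 and 27 and 11 in replicate 2. Leaving out the 19 neighbouring IDs, 57 were lower and 12 higher, against 5 lower and 11 higher in replicate 1 and 9 lower and 10 higher in replicate 2. In the DMSO libraries these counts were 10 to 14 lower and 7 to 12 higher. The excess of replicate 3 in CPM was in IDs below the other replicates. Departures of this size in either direction concerned 0.635% of the IDs, the 19 included. In TPM, at 2-fold and a mean of at least 5 TPM, 93 IDs were higher and 105 lower in replicate 3, the 19 included. The directions were nearly balanced there, against 1 higher and 13 lower at 2-fold in CPM. Such departures in TPM were not counted for the other libraries. Among the 57, 33 had a 200 nM mean under 10 CPM, 22 had 10 to 30 CPM and 2 had more. The spread of all IDs was also a little wider. The SD of the log2 ratio at 100 to 300 CPM was 0.0768 for replicate 3, 0.0608 for replicate 1 and 0.0554 for replicate 2, and at 5 to 10 CPM it was 0.209, 0.186 and 0.184.

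**Figure D4:**
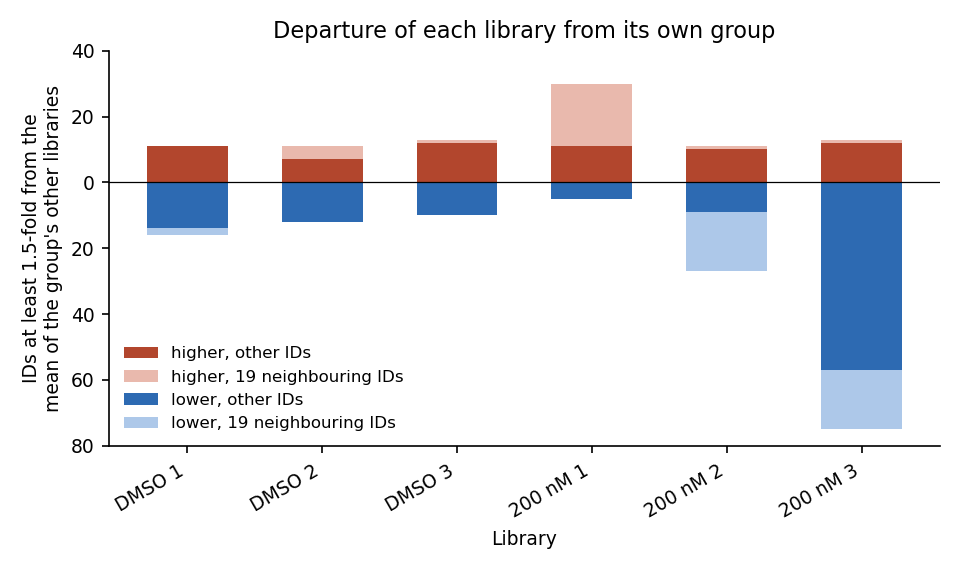
Number of IDs at least 1.5-fold above (upward bars) or below (downward bars) the mean of the other 2 libraries of the same group, among IDs with at least 5 CPM; pale parts are the 19 neighbouring IDs that were high in 200 nM replicate 1. Outside these 19, 200 nM replicate 3 has 57 IDs below its group, and each of the other 5 libraries has 5 to 14.

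The 57 IDs were then read in the other groups. As a percentage of the mean of 200 nM replicates 1 and 2, their median level was 62.8% in replicate 3. It was 44.5% to 48.7% in DMSO, and at 25 nM it was as low as 7.12% to 8.43%. At 500 nM it was 28.9%, 5.34% and 19.3% in replicates 1 to 3. The median of replicate 3 lay between those of replicates 1 and 2 and those of DMSO. Replicates 1 and 2 were both above every DMSO value for 51 of the 57, and replicate 3 was above every DMSO value for 35 and below for 9. For 47 of the 57, all 25 nM values were below all DMSO values. The matching shares over all IDs tested are not given for these counts, so they do not show what is particular to the 57. In the comparison of 200 nM with DMSO 20 of the 57 were called higher, 1 lower, and 36 did not pass the test. Over all IDs tested, 14.5% were called higher and 12.9% lower. The 12 IDs high in replicate 3 were at a median of 162% there, 104% to 113% in DMSO, 204% to 228% at 25 nM and 58.1% to 73.1% at 500 nM. Both lists were chosen by the ratio of replicate 3 to the mean of replicates 1 and 2, and the percentages use that same mean, so values in the other groups on the same side of 100% are partly set by the choice. They are given as a description. Replicate 3 was the lowest 200 nM library for 55 of the 57, and for the other 2 replicate 1 was high and replicate 2 was below replicate 3. Some of the 55 also had a high replicate 1 and a replicate 2 close to replicate 3. Examples in replicates 1 to 3 are 148%, 51.7% and 48.9% for XBXL10_1g25647 and 136%, 64.0% and 60.7% for XBXL10_1g16786.

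To see what replicate 3 did to the response itself, IDs were called against DMSO without it and its own value was then read. The same was done for replicates 1 and 2, and 23.5%, 22.9% and 23.8% of the IDs tested were called without replicates 1, 2 and 3. The DMSO libraries are shared by the calls and the values. The direction was kept for most IDs in each left-out library. Over all called IDs, replicate 3 did not stand apart in size. The change of the left-out library was taken as a percentage of that of the others, ID by ID. Its median in replicates 1, 2 and 3 was 94.4%, 95.6% and 93.2% for IDs called higher. For those called lower it was 90%, 96.2% and 93.5%. Of the IDs called higher, the left-out library was above all DMSO values for 94.6% in replicate 1, 95.4% in replicate 2 and 94% in replicate 3. Of those called lower, it was below all DMSO values for 95.8%, 96.7% and 94.1%. Among IDs called at least 2-fold higher, replicate 3 was below the others, with median percentages of 98.4%, 99.4% and 88.4% for replicates 1, 2 and 3. This difference was not tested. Among those at least 2-fold lower the medians were 91.8%, 94.2% and 89.4%. Replicate 3 showed less than 50% of the change of the others for 8.73% of the at least 2-fold higher IDs, against 5.45% and 4.64% for replicates 1 and 2. Among the at least 2-fold lower IDs it did not stand out, at 10.7% against 10.8% and 9.26%. The lists differ between the replicates. At least 2-fold higher, 661, 647 and 756 IDs had a value to read for replicates 1, 2 and 3. The lists made without replicate 1 or 2 were chosen with replicate 3 included, so these figures are not like for like. They are given as a description.

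Whether the middle dose gave levels of its own was asked by direct contrasts of 200 nM with 25 nM and with 500 nM, in which 19.9% and 29.1% of the IDs tested were called. Of the 24454 IDs tested, 431 were called higher at 200 nM than in DMSO, at 25 nM and at 500 nM. Another 172 were called lower than in all 3 (edgeR adjusted p under 0.05 in each contrast). The 3 contrasts share the 200 nM libraries. Those higher had large differences, with median log2 fold changes of 0.93 against DMSO, 1.45 against 25 nM and 1.18 against 500 nM, and 168 of the 431 were at least 2-fold higher in each contrast. Those lower had small ones, with medians of -0.31, -0.31 and -0.30, and 3 of the 172 were at least 2-fold lower in each. The higher IDs had a median level of 5.84 CPM at 200 nM and the lower ones 34.7 CPM.

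The number of these IDs changed when any of the 200 nM replicates was left out. As a percentage of the 200 nM mean, the median of the 431 IDs was 105%, 105% and 88.1% in replicates 1 to 3, 52.9% to 53.6% in DMSO, 34.8% to 36.6% at 25 nM and 33.5% to 51.3% at 500 nM. For 400 of them all 3 RA values at 200 nM were above all 9 other libraries. The choice of the IDs by contrasts with those same libraries largely sets this, and it is given as a description. Without replicate 1 or 2 the number of such IDs, higher and lower together, was 377 or 388 in place of 603, and without replicate 3 it was 706. Of the 460 IDs chosen as higher without replicate 3, its own value was above all 9 libraries of the other groups for 82.4%, at a median of 81% of the other two replicates. For replicates 1 and 2, left out in turn, these shares were 99.3% of 271 and 97.5% of 277 IDs, at medians of 104% and 105%. For the lower IDs the shares were 93.2% of 103, 95.3% of 107 and 61.6% of 237 IDs for replicates 1, 2 and 3. Each list was chosen by contrasts with those same 9 libraries. The lists made without replicate 1 or 2 were chosen with replicate 3 included and were shorter, so the shares are not like for like. They are given as a description.

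**Figure D5:**
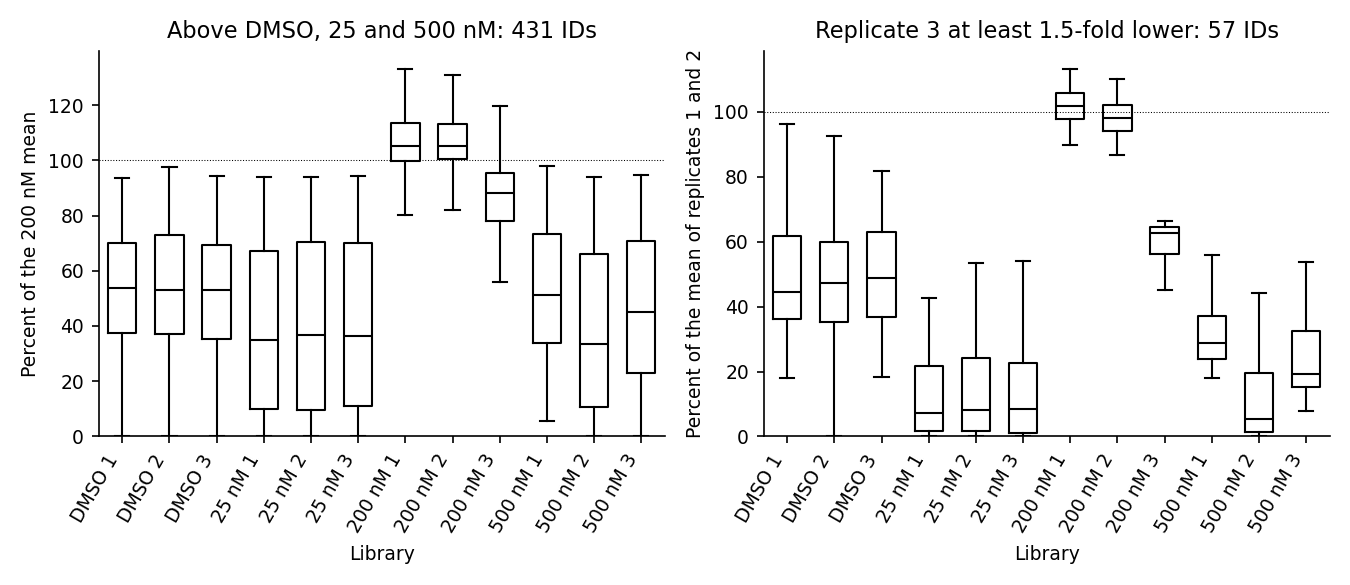
Left, the 431 IDs called higher at 200 nM RA than in DMSO, at 25 nM and at 500 nM, as percent of their 200 nM mean; right, the 57 IDs at least 1.5-fold lower in 200 nM replicate 3, as percent of the mean of replicates 1 and 2. Boxes are quartiles with the median over IDs in each of the 12 libraries, and whiskers reach to 1.5 times the box, with IDs beyond not drawn. Replicate 3 lies at 88.1% on the left and 62.8% on the right (medians). On the left this is nearer to the other groups than replicates 1 and 2. On the right, the choice of the IDs by this same ratio sets replicate 3 below replicates 1 and 2. The 12 IDs high in replicate 3, at a median of 162% there and 104% to 113% in DMSO, are not drawn.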

How the data were processed

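The tools named per the submitters' processing notes are Bowtie2 and RSEM 1.3.0. Not given in the sources used here are their order, the build and the gene models. Per the labels' protocols, a stranded mRNA kit was used. The authors deposited expected counts (already whole) and TPM for 44479 rows. The row that names no gene, at a count of 0, was left out. RSEM divides reads between similar copies, so counts of such copies are estimates. Among IDs tested with a mean of at least 10 counts, 32 had counts identical to another ID. Replicate pairs differed beyond sampling noise (chi-square over degrees of freedom, 2.93 to 88.3).

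The count model was edgeR 4.0.16 under R 4.3.3: filterByExpr at a minimum count of 10, TMM factors, and a robust quasi-likelihood fit of 4 groups to all 12 libraries, with Benjamini-Hochberg adjustment over all IDs tested. Standard errors came from the fitted information and dispersion, with counting error as the lower bound. Log levels used a prior count of 2. The steps were tested on simulated data. Intervals of the ratios of summed counts, and the floors, cover counting error only. Alternatives used DESeq2 1.42.0 and limma 3.58.1. Named IDs were, by rule, the largest rise and fall and the top ID switched on and off; gene lists needing symbols were not run. The members, rules and lists were chosen with earlier results of these data known. The deviations of same-numbered DMSO and 200 nM libraries correlated at 0.00426 to 0.0192, inside the range of -0.0299 to 0.0201 for libraries of other numbers.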

Additional observations from a re-analysis of the deposited data

How the results depend on the processing

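Of 129 alternative counts, 104 were within 1.5 times the reported count. For the 4 named IDs all 74 alternative values had the same direction and passed the test. The 4 were chosen from these same libraries as the largest or top changes, which largely sets this result. It is given as a description. XBXL10_1g22063 gave no value by filtered limma on log2(TPM + 1) or log2(TPM + 0.1), and these settings are not among the 74. By limma on log2(TPM + 1) without a filter its log2 fold change was 0.71. At least 2-fold changes numbered 336, 668 and 328 by limma on log2(TPM + 1), on log2(TPM + 0.1) and on log2(TPM + 1) without a filter, against 1178. With levels in TPM, 1857 IDs were called under 3 TPM, against 1207 under 3 CPM. IDs switched on and off numbered 9 and 2 with a filter of 1 CPM in 3 libraries and 4 and 0 with 0 counts as the low side. They numbered 57 and 14 with 0.1 TPM and 3 and 1 with at least 30 counts as the high side. The filter and these limits change the choice itself. With the limits kept and the 6 libraries thinned to the shallowest, which changes the depth, they numbered 10 and 12. With 1 library left out in turn, the IDs apart from DMSO, 25 and 500 nM numbered 377 to 706. IDs switched on and off then numbered 30 to 61 and 5 to 10. Only 2 libraries of the reduced group then had to meet the limit, so the rule itself was looser. IDs at least 2-fold apart in replicate 3 numbered 88 from 1 CPM up, 3 from 20 CPM up, 198 in TPM, where 93 were higher and 105 lower, 4 without the 19 neighbouring IDs and 88 at 1.5-fold; the last 2 settings were added after seeing the data. Without the 19 IDs, 6736 IDs were called. With a replicate block, 6700 IDs were called and 1157 at least 2-fold, and the numbers switched on and off were 26 and 5; the labels do not say that the numbers pair the pools. For other numbers the deviations correlated at -0.0299 to 0.0201. The cause of the other differences was not tested.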
